A study of Cavia porcellus with 6 samples.

Results

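The transforming growth factor beta (TGF-beta) genes examined here are 10 symbols matched exactly in the deposited count table, out of 32193 genes listed there. They are the ligand genes Tgfb1, Tgfb2 and Tgfb3, the receptor genes Tgfbr1, Tgfbr2 and Tgfbr3, the signalling and feedback genes Smad3, Smad7 and Skil, and the matrix target Tgfbi. All 10 were found, all are protein-coding genes in the reference table of RefSeq names, all 10 had counts in every library, and all 10 passed the filter on low counts that left 16348 genes to test. The data are RNA sequencing read counts from the posterior pole of the guinea pig (Cavia porcellus) sclera, the tough fibrous wall of the eyeball. The 3 libraries of the form-deprived group (FDM) and the 3 of the control group (NC) each come from right eyes collected on day 28 of induction. Form deprivation means that the eye is kept from seeing a sharp image, which leads the growing eye to elongate and become myopic. The sources used here do not give the strain, age or sex of the animals, how the eyes were covered or anything done to the control group. The series title names quercetin, but no library is labelled as treated with it. Each library was taken to be 1 animal, since only right eyes were used. If the libraries of a group shared an animal or a pool, the spread given here would be partly technical.

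TGF-beta ligands are secreted as latent dimers and held in the matrix until they are released. The freed ligand brings the type II receptor (Tgfbr2) and the type I receptor (Tgfbr1) together, and the type I receptor then phosphorylates SMAD2 and SMAD3, which enter the nucleus with SMAD4. In fibroblasts the pathway is known for driving collagen and other matrix genes and the contractile myofibroblast state, and in the sclera it has been studied as a control of matrix turnover during myopic eye growth. The comparison of FDM with NC asks whether the expression of these genes differs after form deprivation.

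None of the 10 genes differed between FDM and NC beyond the spread between libraries. By edgeR's quasi-likelihood test with Benjamini-Hochberg adjustment over all 16348 genes, 0 of the 10 had an adjusted p below 0.05, where 0% of all genes did (0 of 16348). All 10 had an adjusted p of 0.999999 in edgeR. This was also the smallest adjusted p over all 16348 genes, so the lack of a call does not set these 10 apart from other genes. At an unadjusted p below 0.05 there were again 0 of the 10 in edgeR's test, beside 156 of all genes (0.954%). DESeq2, another count model, called 0 of the 10 and 24 of 22455 genes (0.107%), and limma-voom, a linear model on log counts, called 0 of the 10 and 0% of 16348 genes. The libraries of the groups overlapped for all 10 genes, while 5.55% of all tested genes showed no overlap in either direction. Of the 10 log2 fold changes (FDM against NC) 7 were positive and 3 negative, with a median of 0.41, beside a median of 0.02 over all tested genes, of which 51.2% were positive. The 95% intervals of all 10 include 0.

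The libraries held 10377397 to 17534982 counts, and FDM 1 and NC 1 had counts for 12783 and 14416 genes against 17689 to 20591 in the other 4. Of the 10 TGF-beta genes FDM 3 held the highest value for 5 and NC 2 the lowest for 6, and FDM 1 held the lowest for 3. The 13 fibroblast markers found in the table, among them the genes for type I collagen and decorin, all had counts in every library. Their summed level was 13649 to 53947 CPM (TMM-scaled counts-per-million values) in FDM and 6034 to 56992 CPM in NC, lowest in NC 2. Markers of neighbouring tissues were also present. The 11 skeletal muscle markers summed to 10404 to 70463 CPM across FDM and 423 to 26448 across NC, with Myh2, Myh4, Actn2 and Mb at 0 in at least 1 library. The 12 photoreceptor markers summed to 243 to 11693 CPM across FDM and 492 to 26104 across NC, highest in NC 2, with Pde6a, Pde6b and Gngt1 at 0 in at least 1 library. In bulk tissue, fewer cells of a type and less RNA per cell cannot be told apart. A fit with the mean level of the fibroblast markers as a covariate was added once the values had been seen. In it edgeR called 0 of all tested genes and so 0 of the 10 TGF-beta genes. Of the 10, 7 were positive, and the median log2 fold change of the 10 was 0.37. The collagen gene Col1a1 is both a fibroblast marker and a TGF-beta target, so in this fit fibroblast content and pathway output cannot be told apart. The part of muscle and retinal RNA in the values of the 10 genes was not tested.

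**Figure D1:**
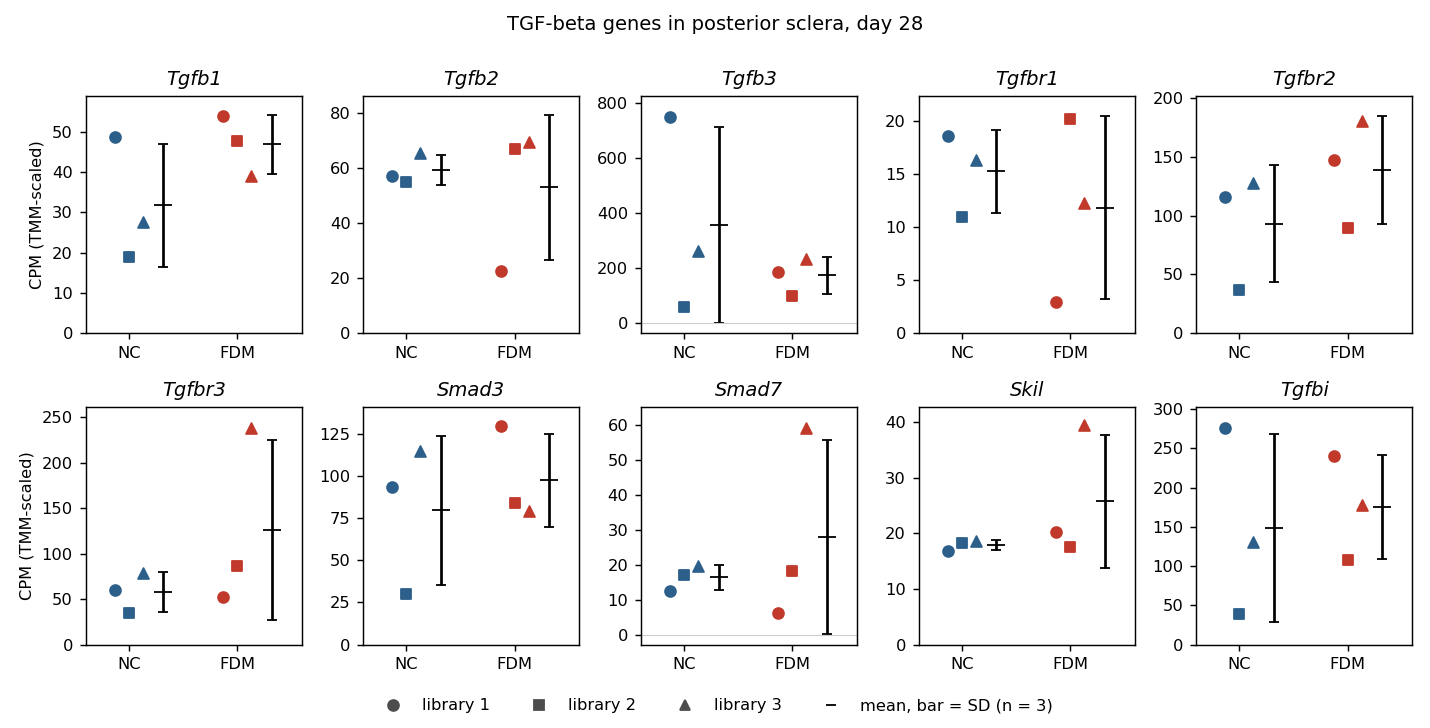
TMM-scaled CPM of the 10 TGF-beta genes, with NC libraries in blue and FDM libraries in red, the marker shape giving the library number within its group and the black bars the group mean and SD (n = 3). The FDM and NC points overlap in all 10 panels, and single libraries such as NC 1 for Tgfb3 (749 CPM) and FDM 3 for Smad7 (59.0 CPM) stand far from the rest.

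The 3 ligand genes had log2 fold changes of different sign. Tgfb1 encodes the ligand best known for inducing fibrosis. It held 53.8, 47.6 and 39.1 CPM in FDM 1, 2 and 3 and 48.6, 18.9 and 27.6 CPM in NC 1, 2 and 3. All FDM libraries lay above NC 2 and NC 3, but NC 1 lay among them. The FDM mean was 46.8 ± 7.39 CPM and the NC mean 31.7 ± 15.3 CPM (± SD, 3 libraries each). The fitted log2 fold change was 0.56 ± 0.48 (SE, from edgeR's fit) with a 95% interval from -0.53 to 1.65. Without NC 1 the log2 fold change was 1.0, and without NC 2 it was 0.28, the highest and lowest values with any single library left out. Without NC 1 Tgfb1 lay higher in all FDM libraries than in both remaining NC libraries, in a setting where 12.7% of all tested genes showed no overlap. Its unadjusted p in edgeR was then 0.0823 and its lowest adjusted p with any library left out was 0.99983.

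Tgfb2 encodes the isoform known as the main TGF-beta of the aqueous humour. It held 66.9 and 69.5 CPM in FDM 2 and FDM 3, close to the 57.2, 54.9 and 65.5 CPM of NC 1, 2 and 3, and 22.7 CPM in FDM 1. A single library, FDM 1, thus set the FDM mean of 53.0 ± 26.3 CPM below the NC mean of 59.2 ± 5.56 CPM (± SD, 3 libraries each). The log2 fold change was -0.16 ± 0.49 (SE), with a 95% interval from -1.26 to 0.94. Without FDM 1 it was 0.20, with the other 2 FDM libraries above all 3 NC libraries, in a setting where 11.8% of all tested genes had no overlap.

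Tgfb3, the isoform often linked to reduced scarring in wound studies, varied most among the ligands. The FDM libraries held 185, 97.2 and 232 CPM and the NC libraries 749, 56.5 and 259 CPM. Both the highest and the lowest value were in NC, 13.3-fold apart, and all FDM values lay between them. Averages were 171.6 ± 68.6 CPM over the FDM libraries and 355 ± 356 CPM over the NC libraries (± SD, 3 libraries each). Its log2 fold change by edgeR was -1.05 ± 0.81 (SE) with a 95% interval from -2.88 to 0.79. This value depended on NC 1, without which the log2 fold change was 0.11, and it was -1.57 without NC 2, with an unadjusted p of 0.0311 and an adjusted p of at least 0.99983 in edgeR.

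**Figure D2:**
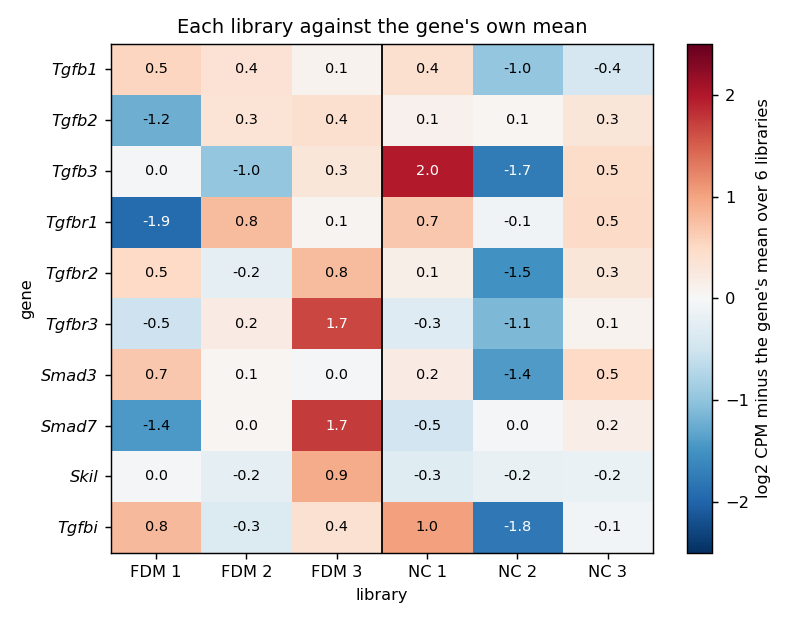
Log2 CPM of each TGF-beta gene (rows) in each library (columns) minus the mean of that gene over the 6 libraries, red above and blue below that mean. NC 2 is blue for Tgfb3 (-1.74), Tgfbr2 (-1.51), Smad3 (-1.42) and Tgfbi (-1.79), FDM 1 is blue for Tgfb2 (-1.22), Tgfbr1 (-1.93) and Smad7 (-1.44), and FDM 3 is red for Tgfbr3 (1.67) and Smad7 (1.74).

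Among the receptor genes Tgfbr3 had the smallest p of the 10, and it too missed the threshold. Tgfbr3 encodes betaglycan, a co-receptor without kinase activity that presents ligand, TGF-beta 2 above all, to the type II receptor. It held 52.5, 86.0 and 238 CPM in FDM 1, 2 and 3 and 60.0, 34.3 and 79.0 CPM in NC 1, 2 and 3. FDM 3 alone stood far above the rest, FDM 2 lay just above the highest NC library, and FDM 1 lay inside the NC range. The FDM mean was 125.6 ± 99.0 CPM and the NC mean 57.8 ± 22.5 CPM (± SD, 3 libraries each). The fitted log2 fold change was 1.12 ± 0.60 (SE) with a 95% interval from -0.23 to 2.48 and an unadjusted p of 0.0944 in edgeR's test. The estimate for Tgfbr3 was 0.21 with FDM 3 left out and 1.49 with FDM 1 left out, the latter with an unadjusted p of 0.0271 and an adjusted p of at least 0.99983 in edgeR.

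Tgfbr2, the type II receptor kinase that binds ligand first, held 147, 89.2 and 180.3 CPM in FDM and 115, 36.5 and 128 CPM in NC. FDM 1 and FDM 3 lay above all NC libraries and FDM 2 lay below both NC 1 and NC 3. Averages were 138.9 ± 46.1 CPM over the FDM libraries and 93.2 ± 49.5 CPM over the NC libraries (± SD, 3 libraries each). Its log2 fold change by edgeR was 0.58 ± 0.53 (SE), and 0.16 without NC 2. Tgfbr1, the type I receptor kinase that phosphorylates the SMADs, was counted 30 times in FDM 1, while FDM 2 and FDM 3 had 280 and 196 counts and NC had 181 to 313. It held 2.96, 20.2 and 12.3 CPM in FDM and 18.6, 10.9 and 16.3 CPM in NC, so FDM held both the highest and the lowest library. The corresponding log2 fold change was -0.37 ± 0.85 (SE), and 0.09 without FDM 1.

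The make-up of the ligand and of the receptor counts within each library does not depend on how libraries are scaled. Longer transcripts give more reads and no transcript lengths were used, so a share is compared between libraries and not between genes. Tgfb1 made up 20.6%, 22.5% and 11.5% of the 2656 to 5433 ligand counts in FDM 1, 2 and 3 and 5.69%, 14.5% and 7.83% of the 2156 to 8741 ligand counts in NC 1, 2 and 3. FDM 1 and FDM 2 lay above all NC libraries and FDM 3 lay below NC 2. The mean share of Tgfb1 was 18.2% ± 5.88 across FDM libraries and 9.34% ± 4.61 across NC libraries (SD, n = 3), which differ by 8.82 percentage points (exact permutation test, two-sided, p = 0.2, and 0.9 adjusted over the 6 shares). The difference was positive, at 6.67 to 12.2 points, with any single library left out. This share also depends on Tgfb3, the largest ligand share in every library, from 45.9% to 70.8% among FDM libraries. Among controls the Tgfb3 share ran from 43.4% (NC 2) to 87.6% (NC 1). NC 1 had the lowest Tgfb1 share, yet its Tgfb1 level of 48.6 CPM lay below only that of FDM 1 (53.8 CPM). The share thus cannot tell a higher Tgfb1 level from a lower Tgfb3 level. Tgfbr1 made up 1.46%, 10.3% and 2.85% of the receptor counts in FDM and 9.58%, 13.4% and 7.31% in NC, a difference of -5.21 points (exact permutation test, two-sided, p = 0.3, adjusted 0.9). FDM 1 and FDM 3 lay below all NC libraries and FDM 2 lay above NC 1 and NC 3. The shares of Tgfb2, Tgfb3, Tgfbr2 and Tgfbr3 differed by -2.25, -6.57, -0.44 and 5.65 points, with p of 1, 0.6, 1 and 0.6 in the same exact test. All 4 differences changed sign with some single library left out, running from -10.1 to 7.57 for Tgfb2, -19.0 to 3.15 for Tgfb3, -10.1 to 5.32 for Tgfbr2 and -1.12 to 13.6 points for Tgfbr3. With 3 libraries against 3 this test cannot give a p under 0.1.

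**Figure D3:**
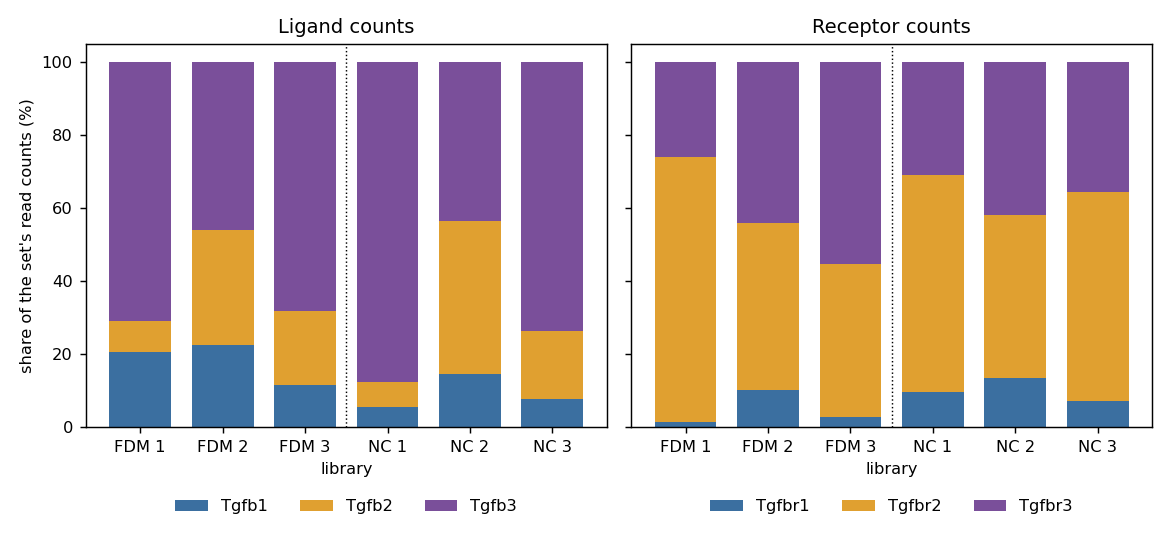
Stacked bars of the share of each ligand gene in the summed counts of Tgfb1, Tgfb2 and Tgfb3 (left) and of each receptor gene in the summed counts of Tgfbr1, Tgfbr2 and Tgfbr3 (right), in percent per library, with FDM left of the dotted line. The Tgfb1 share is highest in FDM 1 and FDM 2 (20.6% and 22.5%), and the Tgfbr1 share is lowest in FDM 1 and FDM 3 (1.46% and 2.85%).

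Smad3, the transducer that binds DNA, had groups that overlapped widely. It held 129.7, 84.2 and 79.7 CPM in FDM and 93.9, 30.2 and 115 CPM in NC. NC 2 was the lowest library and the other 5 were mixed in order. The FDM mean was 97.9 ± 27.7 CPM and the NC mean 79.8 ± 44.3 CPM (± SD, 3 libraries each). The fitted log2 fold change was 0.29 ± 0.52 (SE), and -0.12 without NC 2.

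Smad7 and Skil are both known as SMAD3-induced brakes on the pathway. Smad7 encodes the inhibitory SMAD that blocks the type I receptor. It held 6.41, 18.2 and 59.0 CPM in FDM 1, 2 and 3 and 12.6, 17.2 and 19.6 CPM in NC 1, 2 and 3. FDM 3 stood far above NC 3, the next library, and FDM 1 was the lowest of all. Averages were 27.9 ± 27.6 CPM over the FDM libraries and 16.5 ± 3.56 CPM over the NC libraries (± SD, 3 libraries each). The log2 fold change by edgeR was 0.76 ± 0.79 (SE). It was -0.50 without FDM 3 and 1.23 without FDM 1. Skil encodes SnoN, a co-repressor of SMAD complexes. It held 16.8, 18.3 and 18.6 CPM in NC 1, 2 and 3, the smallest SD (0.952 CPM) of any of the 10 genes in either group, and 20.3, 17.5 and 39.5 CPM in FDM 1, 2 and 3. FDM 3 stood alone, with FDM 1 just above the NC libraries and FDM 2 among them. The log2 fold change was 0.52 ± 0.57 (SE), and 0.01 without FDM 3. In that library the 18 immediate early genes listed summed to 9920 CPM, with 2825 CPM for FDM 1, 906 for FDM 2 and 484 to 831 across NC, and the 15 cytosolic heat shock genes to 53355 CPM, with 20070 for FDM 1, 10877 for FDM 2 and 6686 to 10345 across NC. Egr2, Egr3, Fosb and Dnajb1 were at 0 in at least 1 library. The part of this stress-type expression in Smad7, Skil and Tgfbr3 was not tested.

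Tgfbi, named for its induction by TGF-beta, encodes a secreted protein that links collagens and integrins and is abundant in cornea. It held 240.0, 107.1 and 177.6 CPM in FDM and 276, 39.2 and 130.2 CPM in NC. The highest and the lowest library were both NC, 7.04-fold apart. The FDM mean was 174.9 ± 66.5 CPM and the NC mean 148.6 ± 119.5 CPM (± SD, 3 libraries each). The fitted log2 fold change was 0.24 ± 0.66 (SE). It was 1.04 without NC 1, -0.23 without NC 2 and -0.059 without FDM 1, so the direction rested on single libraries of either group.

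**Figure D4:**
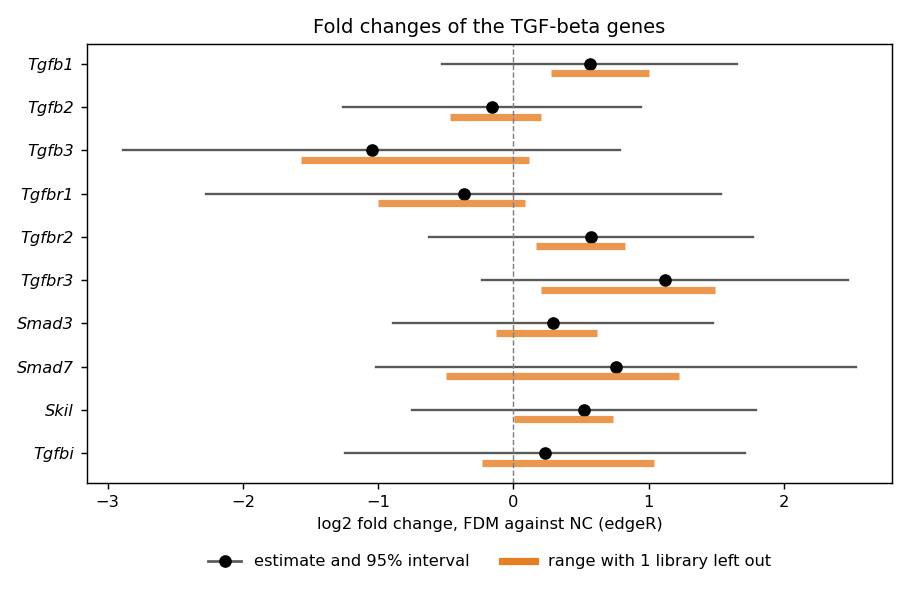
Log2 fold changes of FDM against NC from edgeR for the 10 TGF-beta genes (black points) with 95% intervals (grey lines), and the range of the estimate when any 1 of the 6 libraries is left out (orange bars). Every interval includes 0, and the orange bars of Tgfb2, Tgfb3, Tgfbr1, Smad3, Smad7 and Tgfbi cross 0.

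The profiles of the 10 genes over the libraries lay close in some pairs and far apart in others. Over the 6 libraries the highest value of a gene was 2.35-fold its lowest for Skil and 2.84-fold for Tgfb1, and 9.22-fold for Smad7 and 13.3-fold for Tgfb3. The within-group SD of log2 CPM had a median of 0.85 over the 10 genes, beside 0.95 over all tested genes and 0.69 over tested genes whose mean log2 CPM was at least the lowest among the 10. As a measure of likeness, the root mean square difference of log2 CPM over the 6 libraries, each gene centred on its own mean, was taken for the 45 pairs among the 10. It was smallest for Tgfbr2 and Smad3 (0.37), followed by Tgfb2 and Tgfbr1 (0.44), Tgfb1 and Smad3 (0.45) and Tgfbr2 and Tgfbi (0.46). Tgfbr2, Smad3, Tgfbi and Tgfb1 share their lowest library, NC 2, and Tgfb2 and Tgfbr1 share theirs, FDM 1. Tgfb3 and Tgfbr3 were also lowest in NC 2 but lay 1.24 apart. Smad7, also lowest in FDM 1, lay 0.62 from Tgfb2 and 0.91 from Tgfbr1. The largest distance was between Tgfb3 and Smad7 (1.53), the genes of widest range, and this measure grows with the range of a gene. Over all tested genes with a symbol, the nearest profile was that of Evc for Tgfb1 (0.09), Strn4 for Tgfb2 (0.10), Stam for Skil (0.10), Sema3b for Tgfbr2 (0.15) and Itpripl2 for Smad3 (0.15). It was Nfat5 for Smad7 (0.18), Fstl1 for Tgfbr3 (0.19) and Kank4 for Tgfbi (0.23), while Tgfb3 had no gene closer than Kctd12 (0.36). With 6 libraries and so many genes, close profiles arise easily, and these distances are descriptions only.

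The rest of the pathway was read from 6 lists of 70 genes by role, of which 69 were tested. In edgeR's test 0 of the 69 passed in either direction, and at an unadjusted p below 0.05 there was 1, Klf10, beside 0.954% of all genes. At that level DESeq2 gave 2 of the 69, beside 2.16% of all genes, and limma-voom gave 2, beside 1.03%. Each is a count of 1 or 2 genes, near the background in edgeR and DESeq2 and somewhat above it in limma-voom. Of the 69, 47 were positive with a median log2 fold change of 0.28. Without FDM 3 35 were positive, in a setting where 42.1% of all tested genes were positive and their median was -0.18. In 5 of the 69 every FDM library exceeded every NC library, a larger share than the 2.73% of all tested genes. In 0 every FDM library was below every NC library, beside 2.81% of all tested genes. The difference from these background shares was not tested. Among the 5 that were higher in FDM were Klf10, Snai1, Traf4 and, named after its values were seen, the collagen crosslinking enzyme gene Lox.

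The TGF-beta target genes had a median of 0.62, with 16 of 22 positive, 0 past edgeR's test and 4 of the 5 genes without overlap. The median was 0.11 without FDM 3, where that of all tested genes was -0.18, and 0.35 without NC 2. Junb of this list is also one of the immediate early genes, and Col1a1 one of the fibroblast markers. The part of stress-type expression in this list was not tested. Klf10, a zinc finger gene first found as TGF-beta inducible, held 182, 107.0 and 177 CPM in FDM 1, 2 and 3 and 76.6, 42.8 and 93.9 CPM in NC 1, 2 and 3. The groups stood apart by a narrow margin, between FDM 2 and NC 3. Its log2 fold change was 1.13 ± 0.44 (SE), and 0.84 to 1.33 when single libraries were left out (edgeR, unadjusted p = 0.0309, adjusted p = 0.999999). Snai1, a zinc finger repressor of epithelial genes, was low, at 8.18, 6.86 and 46.7 CPM in FDM and 0, 2.24 and 4.22 in NC. Its log2 fold change of 3.24 ± 1.53 (SE) was 1.72 without FDM 3.

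Other targets overlapped between the groups. Ccn2, the connective tissue growth factor gene, held 434, 156 and 1427 CPM in FDM and 330.4, 151 and 308 CPM in NC, and its log2 fold change of 1.35 ± 0.78 (SE) was 0.12 without FDM 3. The collagen gene Col1a1 held 21589, 7340.0 and 29426 CPM in FDM and 31767, 2776 and 6934 CPM in NC. The log2 fold change was 0.49 ± 1.20 (SE), 2.0 without NC 1 and -0.0069 without NC 2. Its highest and lowest libraries were both NC, as for Tgfb3 and Tgfbi.

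**Figure D5:**
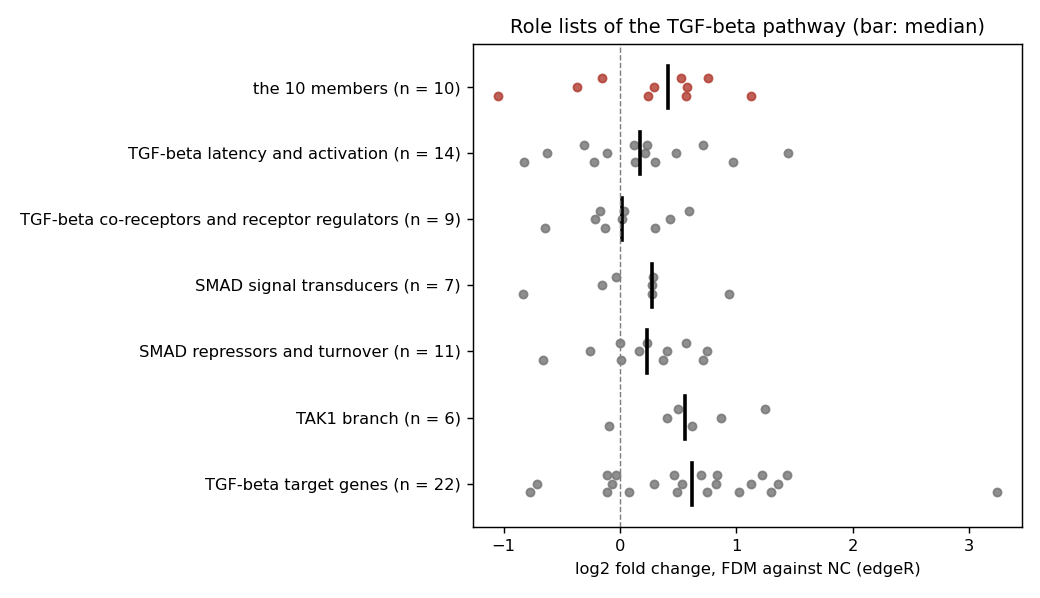
Log2 fold changes of FDM against NC from edgeR for the 10 TGF-beta genes (red) and for the tested genes of 6 role lists of the pathway (grey), each point a gene and each black bar the median of its row. With all 6 libraries the medians run from 0.02 for co-receptors and receptor regulators to 0.62 for target genes (0.11 without FDM 3), and 0 genes passed edgeR's test after adjustment.

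Of the genes that hold ligands latent or activate them, 9 of 14 had a positive value, the median being 0.17 with 0 past edgeR's test. With 1 library left out the median ran from -0.072 (without NC 2) to 0.50 (without NC 1). It was -0.040 without FDM 3, where the all-gene median was -0.18, and -0.032 with scaling by total counts, which put the all-gene median at -0.23. The log2 fold change of Fbn1, whose fibrillin microfibrils anchor latent TGF-beta, was 1.45 ± 1.04 (SE), which rested on 612 CPM in FDM 3 and was -0.63 without it. Nrros, which holds latent TGF-beta on macrophages and microglia, had 0.97 ± 1.07 (0.28 without FDM 1), and Ltbp4, a latent TGF-beta binding protein gene, 0.71 ± 0.63 (0.34 without NC 2). Co-receptors and receptor regulators were split, 5 positive and 4 negative with a median of 0.02 and 0 past the test. This median was -0.21 without NC 2, 0.14 without NC 1 and -0.20 with total counts. Bambi, a decoy receptor without a kinase, had -0.64 ± 0.66 (SE), and -0.28 without NC 1. The endocytic adaptor gene Dab2 had 0.59 ± 0.80 and the co-receptor gene Cd109 0.43 ± 0.77, and without FDM 3 these were -0.55 and 0.018.

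Among the SMAD transducers and their partners 4 of 7 had a positive value, the median being 0.28 with 0 past the test. The direction of this median turned without FDM 3 (-0.55), without NC 1 (-0.14), in limma-voom (-0.19) and with the replicate block (-0.21). The acetyltransferase gene Crebbp had a fold change of 0.93 ± 0.54 (log2, SE), and 0.089 without FDM 3. Smad4, the shared partner of the receptor SMADs, had 0.28 ± 0.46, and Sp1, a transcription factor that works with SMADs, 0.28 ± 0.39, and without FDM 3 these were 0.010 and -0.035. Of the repressors and the genes of SMAD turnover 8 of 11 had a positive value, the median being 0.23 with 0 past the test, and -0.37 without FDM 3. The co-repressor gene Tgif1 had 0.74 ± 0.64 (SE), and 0.36 without NC 2. The phosphatase gene Ppm1a had 0.71 ± 0.52, and 0.35 without NC 1, and the deubiquitinase gene Usp4 had 0.41 ± 0.45, and -0.090 without FDM 1. In the branch that signals through the kinase TAK1 5 of 6 had a positive value, the median being 0.56 with 0 past the test. It was 0.20 without FDM 3, 0.29 without NC 1 and 0.85 without FDM 2. Traf4, an adaptor of TGF-beta receptors, held 61.0, 35.4 and 32.9 CPM in FDM and 8.41, 19.7 and 26.6 in NC, and its log2 fold change of 1.24 ± 0.57 (SE) was 0.48 without both libraries numbered 1. Tab2 and Tab3, which encode TAK1 binding partners, had 0.87 ± 0.85 and 0.62 ± 1.03 (SE). Tab2 had 0.34 without NC 1, 0.36 without FDM 3 and 1.55 without NC 3, and Tab3 had -0.30 without FDM 3.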

How the data were processed

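The authors deposited raw read counts per gene in 1 table of 6 columns, whose names match the sample titles. The submitters' processing notes name Trimmomatic, STAR and HTSeq. Versions, strand setting, genome build and annotation were not found in these sources, so no coordinates are printed and reads of overlapping genes cannot be told apart. Libraries came from Trizol-extracted RNA and a NEBNext Ultra kit, per the labels' protocols.

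Counts were filtered with filterByExpr, TMM-scaled and tested with the older quasi-likelihood form of edgeR (robust, group as sole term, called at an adjusted p below 0.05). This form was also run on simulated data, whose outcome is not reported here and is not used as support. Software was edgeR 4.0.16, DESeq2 1.42.0 (run on every gene with a count), limma 3.58.1, R 4.3.3 and matplotlib 3.10.9. The SE is the absolute log2 fold change over the square root of F, and 95% intervals use the degrees of freedom of the fit. Log2 CPM was computed with a prior count of 2. The spread between libraries sets the precision at depths of 10377397 to 17534982 counts. Its common coefficient of variation over all tested genes was 0.933, and the gene-wise values of the 10 TGF-beta genes ran from 0.498 (Tgfb2) to 0.780 (Tgfbr1). Members and lists were chosen with earlier results of these data known. Pathway genes were named by rule, as the 3 of smallest p in each list with Ccn2, Klf10 and Col1a1, and so was the nearest profile of each of the 10 genes. Some genes taken by this rule are not reported here. The alternatives were DESeq2, limma-voom, other scalings and filters, a replicate block, non-robust estimation and libraries left out, and, added after seeing the data, the newer edgeR form and a fibroblast covariate. Ep300 was not analysed here.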

Additional observations from a re-analysis of the deposited data

How the results depend on the processing

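Under the 18 other settings the 10 TGF-beta genes gave 180 log2 fold changes, of which 170 kept their sign, 2 had an unadjusted p below 0.05 and 0 had an adjusted p below 0.05. Every change of sign came with libraries left out. There were 3 without FDM 1, 1 without FDM 3, 1 without NC 1, 2 without NC 2 and 3 without both libraries numbered 1. The count of all genes called was 0 except in DESeq2, with 24. Without both libraries numbered 1 all 10 genes were positive, Tgfb2, Tgfb3 and Tgfbr1 turning to 0.094, 0.022 and 0.17, with a median of 0.61, and 2 genes (Tgfb1 and Tgfbr3) had no overlap, where 23.2% of all tested genes did. With any single library left out, 0 to 2 of the 10 genes had no overlap, beside 10.7% to 21.1% of all tested genes, and the median log2 fold change ran from 0.02 (without NC 2) to 0.54 (without NC 1), being 0.10 without FDM 3. Scaling by total counts alone moved the median of all genes from 0.02 to -0.23 and that of the 10 genes from 0.41 to 0.17, with 7 still positive, and positive pathway genes from 47 to 40 of 69. Without FDM 3 that number was 35, while the median of all genes was -0.18 and 42.1% of them were positive. For libraries of equal replicate number, deviations from the group means correlated across genes at 0.10, 0.03 and -0.15. For unequal numbers the correlations ran from -0.22 to 0.26, so these values cannot settle whether the libraries were paired. With the replicate number as a block 0 genes were called and the median of the 10 was 0.45. The 10 genes together held 5242 to 17971 counts per library. Genes whose sign changed with 1 library left out ran from -0.47 to 0.20 (Tgfb2), -1.57 to 0.11 (Tgfb3), -1.0 to 0.089 (Tgfbr1), -0.12 to 0.61 (Smad3), -0.50 to 1.23 (Smad7), -0.23 to 1.04 (Tgfbi), -0.63 to 1.99 (Fbn1), -0.55 to 1.01 (Dab2), -0.035 to 0.41 (Sp1), -0.090 to 0.58 (Usp4, -0.072 without both libraries numbered 1), -0.30 to 1.07 (Tab3) and -0.0069 to 2.0 (Col1a1).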
